A study of Myotis pilosus with 4 samples.

Results

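The microRNA miR-101-3p was followed in small RNA of a hibernating bat, Myotis ricketti, which the sample labels name Myotis pilosus. Its mature sequence in the study's listing was looked up among the clean sequences (tags) of each library, together with the tags that differ from it at the 3′ end or by up to 3 bases at the 5′ start. It was 1 miRNA of the listing, beside 195 others. The listed sequence is 1 tag, and this rule found 1331 tags with 1840644 reads, of which 633 tags were in AB, 594 in HB, 438 in AA and 678 in HA. miR-101-3p was chosen by its read counts in these same libraries, in which a shortened tag exceeds the listed one, so the mix of forms and the levels are given as a description with no test.

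The samples were 4 pools, each made from the total RNA of 3 wild adult bats and sequenced as 1 library. HB was whole brain and HA intra-abdominal white adipose tissue (WAT) of bats in deep hibernation, caught in March. AB and AA were the same tissues of active bats, caught in October, a state that the labels call aroused. By the paper's sample numbers, both pools of a state came from the same 3 bats, whereas the states were compared between different bats. With 1 library per condition there is no spread between bats, no p-value was calculated, and state and season of capture cannot be told apart. Depth was 10007650 clean reads in AB, 11437337 in AA, 11542470 in HA and 12159756 in HB. As a check of the tissue labels, the listed tag of miR-124a-3p, a miRNA typical of neurons, had 449967 reads in AB and 415697 in HB, against 292 in AA and 286 in HA. HA stood apart in its tags as a whole, with 1160810 distinct tags against 411552 to 629437 in the others, and with 3.83% of its reads at 27 nt or longer, against 0.236% to 0.443%. The paper also reports a larger part of rRNA and a smaller part of miRNA among the genome-matched reads of HA than of the other libraries. By the paper, the RNA integrity number was lowest in AA, the ratio of large to small ribosomal RNA was lowest in HB, and the share of low quality reads was highest in AB. The part of these differences in the levels and forms of miR-101-3p was not tested. The 95% intervals in the text are exact (Clopper-Pearson) and cover counting error only, not the spread between bats. They take the reads as independent, which PCR copies of a molecule are not, so they may be too narrow.

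A miRNA is cut from a hairpin precursor by Drosha and Dicer, and it finds its target mRNAs mainly through the seed, bases 2 to 8 from its 5′ end. A tag that starts at another base therefore carries another seed, whereas a tag that ends at another base keeps it. miR-101 is conserved among vertebrates and comes from the hairpins mir-101-1 and mir-101-2. Among its known targets are EZH2, the histone methyltransferase of a Polycomb repressive complex, and the amyloid precursor protein in neurons. The forms that hold most of the reads are shown here from 5′ to 3′ in the letters of the tag files, with bases 2 to 8 in capitals. They differ by their start (the listed T, or a G before it) and by their last base.
listed tag, 22 nt: tACAGTACtgtgataactgaag
listed start, 21 nt: tACAGTACtgtgataactgaa
listed start, 20 nt: tACAGTACtgtgataactga
listed start, 18 nt: tACAGTACtgtgataact
listed start, 22 nt with A in place of the last G: tACAGTACtgtgataactgaaa
G start, 21 nt: gTACAGTActgtgataactga
G start, 22 nt: gTACAGTActgtgataactgaa
G start, 23 nt with added A: gTACAGTActgtgataactgaaa
G start, 19 nt: gTACAGTActgtgataact
Bases 2 to 8 are ACAGTAC for the listed start and TACAGTA for the G start. None of the other miRNAs in the listing has either of them as its bases 2 to 8 (0 of each), so no other listed miRNA was counted with the same seed.

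The listed tag was a minor form of miR-101-3p. It had 3546 reads in AB, 4368 in HB, 6753 in AA and 5448 in HA. All forms together had 424247 reads in AB, 596353 in HB, 440389 in AA and 379655 in HA. The listed tag thus held 0.836% of the reads of all forms in AB (95% interval 0.809 to 0.864%), 0.733% in HB (0.711 to 0.754%), 1.53% in AA (1.50 to 1.57%) and 1.44% in HA (1.40 to 1.47%). Both WAT libraries lay above both brain libraries in this share. It was the 11th most abundant form in HB and AB, the 9th in HA and the 8th in AA. By the paper's methods, where a miRNA had several length variants, the best represented were kept. The listed tag was not the best represented form in any library, and the reason for its listing was not tested. Counting all forms in place of the listed tag raised the reads 120-fold in AB, 137-fold in HB, 65.2-fold in AA and 69.7-fold in HA. By the listed tag, miR-101-3p ranked 25th among the listed miRNAs in AB, 19th in HB, 15th in AA and 16th in HA. By all forms, with each miRNA counted in the same way, it ranked 8th in AB, 6th in HA and 7th in both HB and AA. Entries counted from the same tags each took a place in this ranking. Above miR-101-3p these were miR-7b-5p and miR-7d-5p in each library, and also miR-124a-3p and miR-124b-3p in AB and HB. By distinct sets of tags its rank is therefore nearer the top.

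The listed start tag of 21 nt, which lacks the last listed base, was the most abundant form over the libraries. Tags are called shortened or extended relative to the study's listing only. Whether the listed end is the usual end of the mature miRNA was not checked, so a shortened tag need not be a trimmed one. The tag of 21 nt was counted in each library. This tag had 108957 reads in AB, 127806 in HB, 150926 in AA and 123665 in HA, 511354 in all. In AB, HA and AA it was the form with the most reads, whereas in HB the 20 nt tag exceeded it. The reads of the 20 nt tag were 78963 in AB, 151447 in HB, 104551 in AA and 74733 in HA. The 21 nt tag held 30.7 reads for each read of the listed tag in AB (29.7 to 31.8) and 29.3 in HB (28.4 to 30.2), against 22.7 in HA (22.1 to 23.3) and 22.4 in AA (21.8 to 22.9). This ratio needs no scaling between libraries, and its intervals overlapped between states but not between tissues. Among all tags of a library, whatever their origin, the 21 nt tag ranked 14th in HB and AA, 15th in AB and 10th in HA.

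In all, 11 tags held 1% or more of the reads of miR-101-3p in at least 1 library, and together they held 97.7% of its reads in AB, 97.5% in HB, 97.2% in AA and 96.4% in HA. The 193 tags found in all 4 libraries held 99.8% of the reads. The 831 tags found in 1 library held 0.0593%, and 655 tags had a single read in all. The diversity of tags was therefore wide, but the reads lay in few of them.

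By class, 3′ shortened tags with the listed start (the listed bases with 1 to 4 missing) were the largest group in each library. They held 48.3% of the reads in AB, 51.5% in HB, 61.2% in AA and 55.0% in HA. The 5′ shifted tags followed with 44.9% in AB (44.7 to 45.0%), 41.3% in HB (41.2 to 41.5%), 29.1% in AA (28.9 to 29.2%) and 32.9% in HA (32.7 to 33.0%). The shifted class takes tags of every 3′ end, and most G start reads also stopped short of the listed end. The shortened share is therefore not the whole of 3′ shortening, and its order between tissues does not compare 3′ ends. Tags with the first 18 listed bases and then a changed 3′ end held 5.86% in AB, 6.24% in HB, 7.89% in AA and 10.2% in HA. Tags extended beyond the listed sequence held 0.165% in AB, 0.158% in HB, 0.290% in AA and 0.536% in HA. The most abundant of the extended tags, 23 nt with an added A (tACAGTACtgtgataactgaaga), had 415 reads in AB, 606 in HB, 631 in AA and 927 in HA.

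**Figure D1:**
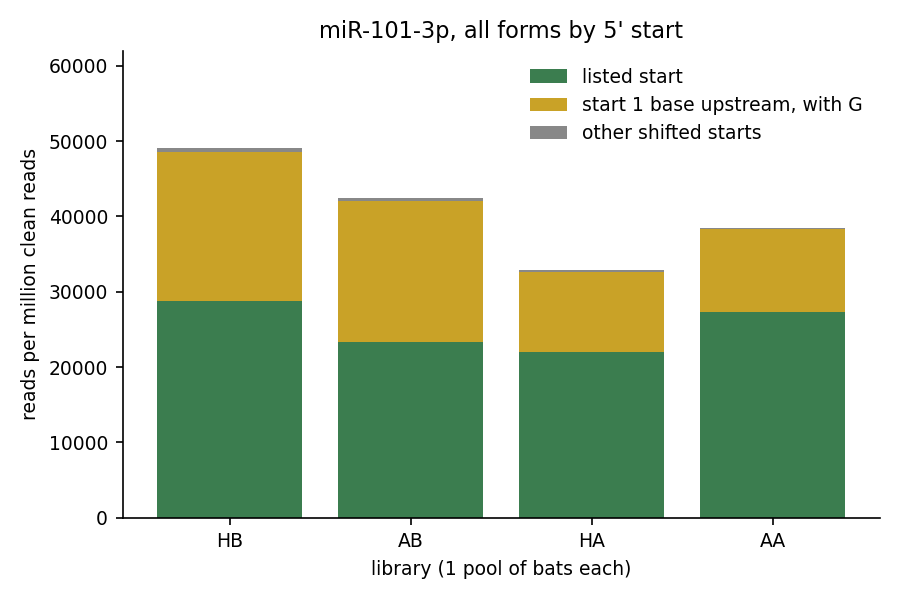
Stacked bars give the level of all forms of miR-101-3p in reads per 1000000 clean reads (y axis) in each library (x axis), divided by the 5′ start. The bars reach 42392 in AB, 49043 in HB, 38505 in AA and 32892 in HA, and the tags that start with G, 1 base upstream, take a larger part of both brain bars than of both WAT bars.

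The start of the molecule differed between the tissues. Nearly all shifted reads began 1 base upstream, and 99.6% to 99.7% of these had G as the added base. The G start held 187106 reads in AB, 240001 in HB, 125629 in AA and 122114 in HA. That was 40.2% of all forms in HB (40.1 to 40.4%) and 44.1% in AB (44.0 to 44.2%), against 32.2% in HA (32.0 to 32.3%) and 28.5% in AA (28.4 to 28.7%). Both brain libraries were above both WAT libraries, and none of the intervals overlapped. With C, T or A as the first base, a 1 base upstream start held at most 0.0828% in any library. Starts 1 to 3 bases downstream, which lose the first listed bases, held 0.582% in AB, 0.911% in HB, 0.455% in AA and 0.570% in HA.

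Expressed as reads with the G start for each read with the listed start, the ratio was 0.800 in AB (0.795 to 0.805), 0.686 in HB (0.682 to 0.690), 0.402 in AA (0.400 to 0.405) and 0.479 in HA (0.476 to 0.482). The brain value over the WAT value was 0.99 on the log2 scale in the active state and 0.52 in hibernation. Between states, the log2 difference of hibernating over active was -0.22 in brain and 0.25 in WAT. The tissue difference was also seen among tags with the same 3′ end. For tags that end at listed base 21 the ratio was 0.635 in AB, 0.506 in HB, 0.317 in AA and 0.442 in HA. For tags that end at base 20 it was 1.01 in AB, 0.789 in HB, 0.573 in AA and 0.631 in HA. For the shortest tags, which end at base 18, it was 1.48 in both brain libraries, against 0.945 in HA and 0.878 in AA. The listed start tag of this end is 18 nt long, the shortest length kept by the authors. The part of this limit in the ratio was not tested. In AB, the G start tag of 21 nt (79925 reads) thus slightly exceeded the listed start tag with the same end (78963 reads).

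The same counting was applied to the other listed miRNAs, for scale, and entries that share tags, such as miR-7b-5p and miR-7d-5p, were each included. Among the 37 miRNAs with 1000 or more reads of all forms in each library, the median share of 5′ shifted tags was 2.49% in AB, 2.46% in HB, 2.23% in AA and 2.38% in HA. miR-101-3p ranked 7th from the highest in both brain libraries and 9th in both WAT libraries. For the start exactly 1 base upstream, it ranked 3rd of 37 in HB and AB and 4th in HA and AA. The highest share was 99.9% in AB, HB and AA and 99.4% in HA, so some miRNAs began almost wholly at another base than their listed sequence. The difference in the odds of a shifted start between AB and AA was 0.99 (log2) for miR-101-3p, the most positive of 41 miRNAs and the 2nd by size among those with 100 or more shifted and unshifted reads in both libraries, whose median was 0.11. Between HB and HA, with 0.52, miR-101-3p was 28th by size of 46 miRNAs. Between states it was 41st of 58 in brain and 35th of 57 in WAT, so the change between states was of a size below the median of these miRNAs. The share of 3′ shortened tags of miR-101-3p ranked 7th of 37 in HB, 6th in AB and 5th in HA and AA, against medians of 17.7% in AB, 19.9% in HB, 15.6% in AA and 11.7% in HA. Its share of the listed tag was 34th or 35th of 37. The rank of the shortened share depended on the miRNAs and tags compared. It was 16th in HB, 13th in AB, 10th in HA and 11th in AA of 96 miRNAs with a minimum of 100 reads, and 2nd in HB, AB and HA and 1st in AA of 32 miRNAs with tags of the listed start only.

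**Figure D2:**
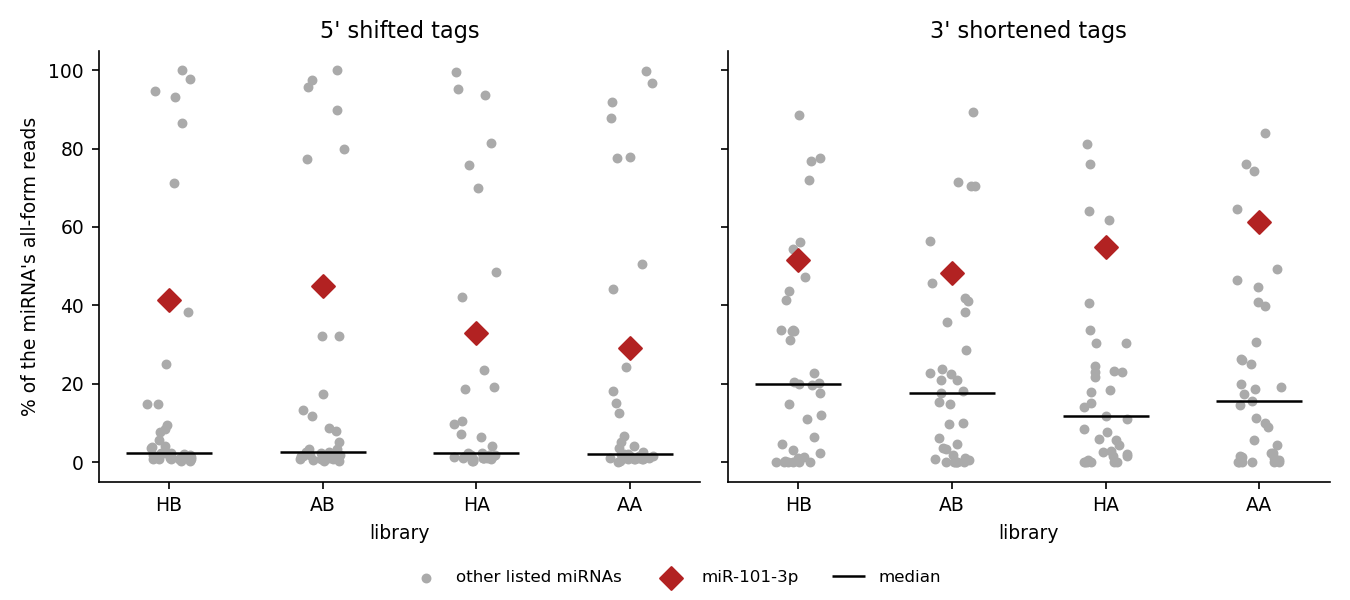
Each point is 1 of 37 listed miRNAs in 1 library (x axis), and the y axis gives the percent of the miRNA's reads in 5′ shifted tags (left) and in 3′ shortened tags (right), with miR-101-3p as a diamond and the median as a line. miR-101-3p lies above the median in both panels and in each library, with 41.3% shifted in HB and 29.1% in AA.

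At the 3′ end, most reads stopped at listed base 20 or 21. Among reads with the listed start, those that ended at base 20 were 33.8% in AB, 43.3% in HB, 33.5% in AA and 29.3% in HA. Those that ended at base 21 were 46.6% in AB, 36.5% in HB, 48.3% in AA and 48.5% in HA. HB was the only library with more reads at base 20 than at base 21 for this start. The ratio of end 20 to end 21 was 0.725 in AB (0.718 to 0.731), 1.19 in HB (1.18 to 1.19), 0.693 in AA (0.687 to 0.698) and 0.604 in HA (0.599 to 0.610). For the G start it was 1.16 in AB (1.14 to 1.17), 1.85 in HB (1.83 to 1.87), 1.25 in AA (1.24 to 1.27) and 0.863 in HA (0.852 to 0.873). In each library, the molecules with the extra 5′ base thus ended at base 20 relative to base 21 more often than those with the listed start. With hibernation the ratio was higher in brain, by 0.71 (log2) for the listed start and by 0.68 for the G start, whereas in WAT the log2 difference was -0.20 and -0.54.

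The ends at bases 18 and 19 followed the tissue. Tags ending at base 18 held 5.15% of the listed start reads in HB and 5.07% in AB, against 2.70% in HA and 2.78% in AA. Among G start reads they held 11.1% in HB and 9.37% in AB, against 5.33% in HA and 6.08% in AA. Tags ending at base 19 held 2.16% (AB) and 2.88% (HB) of the listed start reads, against 1.72% (AA) and 1.33% (HA). Both brain libraries were above both WAT libraries at either end, and the same order held at base 19 for the G start. Tags shorter than 18 nt were removed by the authors, so an end at base 17 or before could not be seen for the listed start. The mean length of all forms was 20.7 nt in HB, 20.9 nt in AB and AA, and 21.01 nt in HA.

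**Figure D3:**
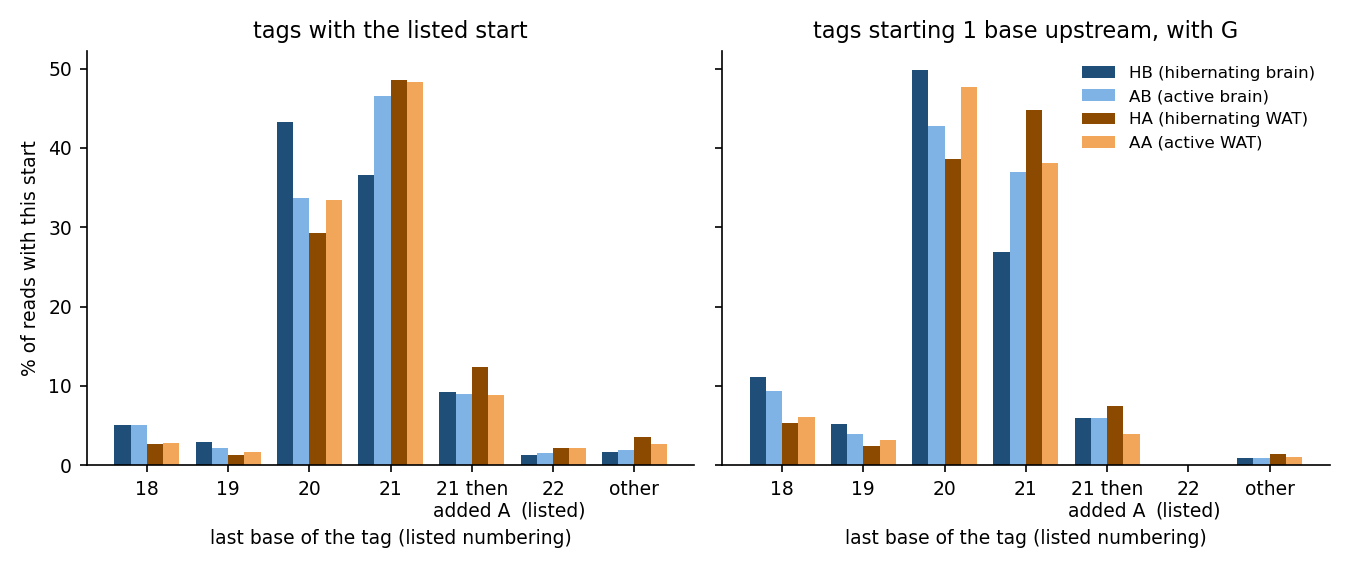
Bars give the percent of reads (y axis) by the last base of the tag in the numbering of the listed sequence (x axis), for tags with the listed start (left) and with the G start 1 base upstream (right), in the 4 libraries. HB is the highest at base 20 in both panels, with 43.3% and 49.8%, and the listed end at base 22 is nearly absent from the right panel.

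The base at position 22 set both starts apart. Among listed start tags that matched through base 21 and had exactly 1 more base, that base was A in 80.3% of the reads in AB, 83.3% in HB, 73.3% in AA and 78.2% in HA. The listed G was the next base in 13.6% in AB (13.15 to 13.98%), 11.3% in HB (11.0 to 11.6%), 18.0% in AA (17.6 to 18.4%) and 13.5% in HA (13.1 to 13.8%). Among G start tags of the same end, the added base was A in 97.6% in AB, 98.3% in HB, 96.1% in AA and 96.5% in HA, and the listed G in only 0.359% in AB (0.258 to 0.487%), 0.341% in HB (0.253 to 0.449%), 0.374% in AA (0.225 to 0.583%) and 0.497% in HA (0.366 to 0.661%). In reads, the G start tag with the listed end had 41 in AB, 50 in HB, 19 in AA and 47 in HA. For each read of the listed tag this was 0.0116 in AB, 0.0115 in HB, 0.00281 in AA and 0.00863 in HA, far below the ratio of 0.317 to 0.635 for tags that end at base 21. Whether the A is encoded in a hairpin or added after cutting was not tested, and no genome of the bat was used here.

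With the listed start, the form that ends in A at position 22 was more abundant than the listed tag in each library. It had 21003 reads in AB, 32172 in HB, 27506 in AA and 31587 in HA. For each read that ends at base 21 there were 0.193 reads with the added A in AB (0.190 to 0.196), 0.252 in HB (0.249 to 0.255), 0.182 in AA (0.180 to 0.185) and 0.255 in HA (0.252 to 0.259). For the G start the ratio was 0.161 in AB (0.158 to 0.164), 0.223 in HB (0.219 to 0.227), 0.102 in AA (0.0992 to 0.105) and 0.167 in HA (0.163 to 0.171). Both hibernating libraries were above the active library of the same tissue, for both starts, and the log2 differences were 0.39 and 0.47 in brain and 0.49 and 0.71 in WAT (listed start and G start). Beyond the listed end, the base after the listed G was A or T in nearly all tags of 23 nt. It was A in 75.1% and T in 24.0% of 807 reads in HB, and A in 51.9% and T in 45.7% of 1215 reads in AA.

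The level of miR-101-3p over all forms, in reads per 1000000 clean reads, was highest in HB (49043), followed by AB (42392), AA (38505) and HA (32892). After scaling by TMM over the listed miRNAs (a trimmed mean of the ratios of 2 libraries), the log2 ratio of hibernating to active was 0.50 in brain (0.49 to 0.51), a 1.42-fold difference, and 0.12 in WAT (0.12 to 0.13). The brain ratio stayed above 0 with each scaling tried, whereas that in WAT was -0.23 with scaling by clean reads and 0.90 with TMM over the conserved miRNAs, so its direction followed the scaling. Compared with scaling by clean reads, TMM raised the log2 ratio by 0.29 in brain and 0.35 in WAT. For the listed tag the ratio was 0.31 in brain (0.25 to 0.37), but 0.02 with scaling by clean reads. Its ratio in WAT was 0.03 (-0.03 to 0.08), from -0.32 to 0.80 over the other scalings, so that no direction held. For comparison, a log2 ratio of at least 1 in size was found for the listed tags of 40.5% of 153 miRNAs in the brain pair and of 49.3% of 142 in the WAT pair, among miRNAs with at least 10 reads in the pair. With all-form counts, 51 of 184 miRNAs reached it in the brain pair and 67 of 168 in the WAT pair. Entries counted from the same tags are each included here, so not all of them are separate observations. miR-101-3p did not reach a log2 ratio of 1 in size in either tissue, with the listed tag or with all forms.

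Between tissues, the direction depended on the count rule and, for all forms, on the scaling. With all forms, the log2 ratio of brain to WAT was 0.48 in hibernation (0.48 to 0.49) and 0.05 in the active state (0.04 to 0.05). With the listed tag it was -0.49 in hibernation (-0.55 to -0.43) and -0.83 in the active state (-0.89 to -0.77). With TMM, the listed tag was thus lower in brain in both states, although all forms together were not. The all-form ratio in hibernation was -0.09 and that in the active state was -0.06 with scaling by the reads of the listed tags, and the active value was also below 0 with TMM over the conserved miRNAs (-0.04) and, at -0.32, with tags of the listed start only. The ratio of the listed tag was below 0 under each scaling, from -1.06 (reads of the listed tags) to -0.19 (TMM over all-form counts) in hibernation and from -0.93 to -0.65 in the active state. By the listed tag, 76.1% of 159 miRNAs reached a size of 1 in the hibernating pair of tissues and 74.8% of 159 in the active pair. By all forms, 140 of 183 did so in the hibernating pair and 136 of 183 in the active pair, again with entries that share tags each included. With TMM, miR-101-3p did not reach a size of 1 by either count rule, whereas its listed tag did in hibernation when scaled by the reads of the listed tags.

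The forms did not move together. In brain, 10 of the 11 main forms had a log2 ratio of hibernating to active above 0 with TMM, and 9 to 11 with the other scalings. With TMM these ratios ran from -0.09 for the G start tag of 22 nt to 1.003 for the listed start tag of 19 nt (10075 reads in HB and 5058 in AB). The 20 nt tag had 0.95 (0.94 to 0.96) and the 21 nt tag 0.24 (0.23 to 0.25) in brain. In WAT, 6 forms were above 0 and 5 below with TMM, whereas 3 to 11 were above 0 with the other scalings. The values with TMM ran from -0.33 for the listed start tag of 19 nt to 1.24 (1.19 to 1.29) for the G start tag of 23 nt with the added A, which had 9121 reads in HA and 4888 in AA. The G start tag of 22 nt had 0.53 (0.51 to 0.55) in WAT and -0.09 (-0.10 to -0.07) in brain. Within a pair of libraries, these values shift together with the scaling, whereas the distances between forms do not.

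**Figure D4:**
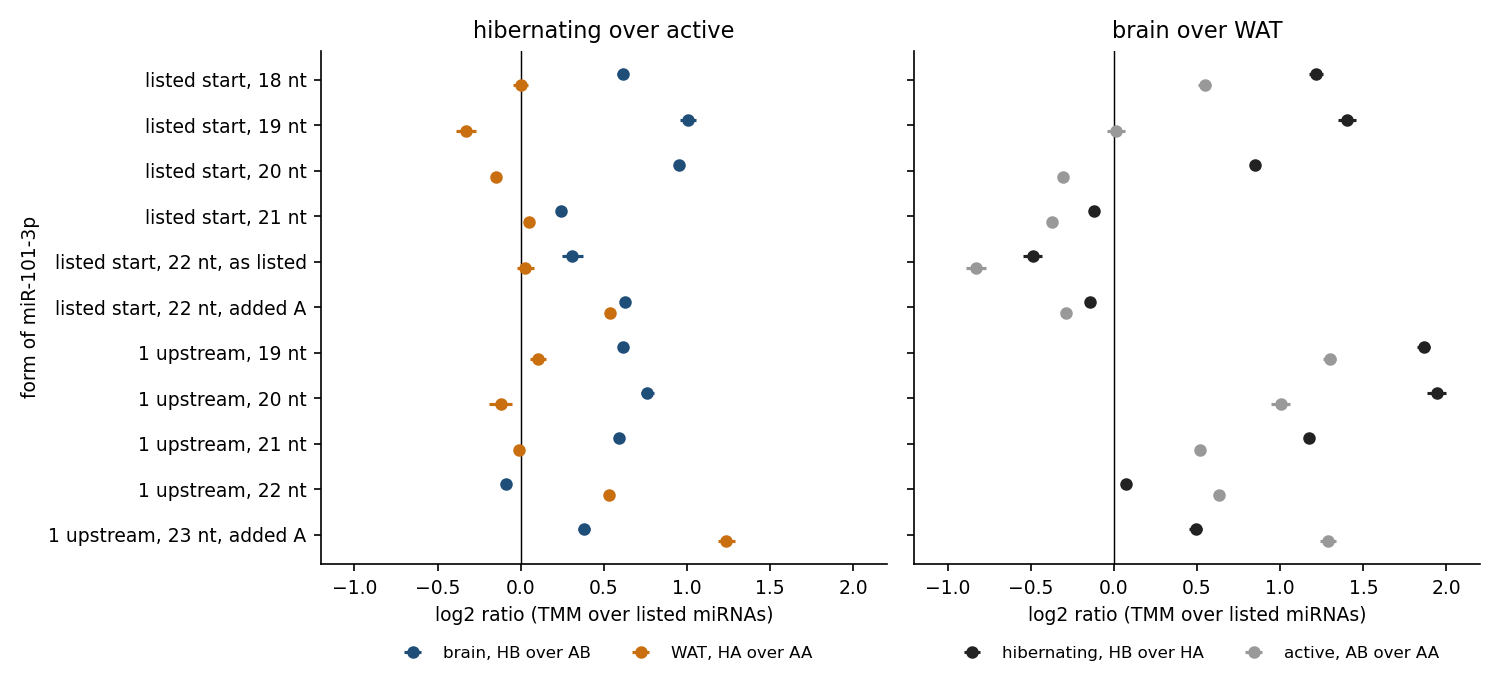
Points give the log2 ratio of each of the 11 main forms (y axis, by start and length, where 1 upstream is the G start) for hibernating over active (left) and brain over WAT (right), with bars for the 95% counting interval. In the right panel, with TMM, the G start forms lie to the right of 0 in both states, from 0.07 to 1.94 (in hibernation 3 of 5 do when scaled by the reads of the listed tags), and the listed tag lies furthest to the left, at -0.49 and -0.83.

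Between tissues, each of the 5 main forms with the G start was higher in brain in both states, except that 3 of 5 were so in hibernation with scaling by the reads of the listed tags. The G start tag of 20 nt had the highest ratio in hibernation, 1.94 (1.88 to 2.00), from 12605 reads in HB and 2919 in HA. That of 19 nt had 1.86 in hibernation and 1.30 in the active state, the highest active value, from 17540 reads in AB and 7639 in AA. Of the 6 main forms with the listed start, the 18 nt tag was above 0 in both states, the 19 nt tag was 1.40 in hibernation and 0.01 (-0.04 to 0.07) in the active state, the 20 nt tag was 0.85 in hibernation and -0.30 in the active state, and the 3 longest were below 0 in both, with TMM. In hibernation the 21 nt tag, at -0.12 with TMM, was 0.038 with the median of ratios and 0.18 with TMM over all-form counts, and 10 of the 11 forms were above 0 with each of these. A size of 1 or more was reached by 5 of the 11 forms in the hibernating pair and by 3 in the active pair, with TMM.

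Few reads matched the opposite arm by the search made here. Tags that hold the reverse complement of listed bases 7 to 19 (cagttatcacagt), had 6 reads in HB and 2 in AB, and 0 reads in HA and AA. These are 0.00101% of the reads of both arms in HB and 0.000471% in AB. In WAT, a floor of 3 reads is 0.000790% of the all-form reads in HA and 0.000681% in AA, and the upper limit of the exact 95% interval for 0 reads is 0.000972% in HA and 0.000838% in AA. The tag with the most reads, 3 in HB, was cagttatcacagtgctgatgct. An opposite arm whose bases differ from this perfect complement would not be counted, so the result does not cover each arm that may face miR-101-3p in mir-101-1 and mir-101-2. The reads were too few to compare states or tissues.

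Tags with 1 substitution within the first 18 bases held 2.75% in AB, 3.06% in HB, 3.24% in AA and 2.97% in HA of the reads with the listed start and at most 1 substitution. All 54 possible substitutions were found in each library. The most frequent, with positions counted from the listed 5′ end, were A15C with 0.160% to 0.470% and A4C with 0.212% to 0.419% of such reads. These tags were not counted as forms.

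By its pattern over the libraries, the level of miR-101-3p ranged narrowly. Its all-form log2 level, centred over the 4 libraries and scaled by clean reads, was 0.07 in AB, 0.28 in HB, -0.07 in AA and -0.29 in HA. Of 61 conserved miRNAs, itself included, with 100 or more reads of all forms in each library, miR-7e-5p lay nearest to it, at a distance of 0.307 (Euclidean, log2), followed by miR-7g-5p at 0.344, miR-7b-5p and miR-7d-5p at 0.434 and miR-29-3p at 0.633. miR-7b-5p and miR-7d-5p were counted from the same tags and are not separate observations. The names are those of the study's listing, and the families that they stand for were not checked. The distance rests on 4 libraries and describes likeness of level alone.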

How the data were processed

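Small RNA of whole brain and WAT was sequenced on Solexa as 4 libraries, each from pooled bats. Before deposit, the authors trimmed the adapters and dropped reads of low quality or shorter than 18 nt. The deposited values are raw counts of each distinct clean tag, without normalization or mapping. The mature sequence was read from the study's miRNA listing. A form of miR-101-3p is a tag that begins with its first 18 bases, or that starts up to 3 bases before or after the listed start and holds bases 4 to 18 with the listed bases between. The classes are the listed tag, 3′ shortened, extended, changed and 5′ shifted, and only tags with the listed start were divided by their 3′ end. The other 195 miRNAs were counted in the same way, and a tag that fits several miRNAs was counted for each. For each pair of libraries, TMM factors from the listed tags (edgeR 4.0.16 under R 4.3.3) scaled the ratios. The methods of the study name an exact test in edgeR, which needs replicates and was not run. Tag classes, ratios and intervals were tested on simulated data. Alternatives were other scalings (clean reads, reads of the listed tags, DESeq2 1.42.0 median of ratios, TMM over the conserved miRNAs or over all-form counts), other count rules, and libraries thinned to 10007650 reads. Forms named in the text hold 1% or more of the reads in a library or lead their class. The miRNA, the rules and the lists were chosen with earlier results of these data known. Counting used pandas 2.3.3 and NumPy 2.4.6, intervals SciPy 1.17.1 and figures Matplotlib 3.10.9, all under Python 3.11.15.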

Additional observations from a re-analysis of the deposited data

Results flagged for a closer look

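Some differences between states had opposite signs in brain and WAT, and their counting intervals did not overlap between states in either tissue. Whether the tissues differ was not tested, since each value rests on 1 library per condition. The ratio of the G start to the listed start differed, hibernating over active, by -0.22 (log2) in brain and by 0.25 in WAT. Among tags that end at base 20 these values were -0.36 in brain and 0.14 in WAT, and among tags that end at base 21 they were -0.33 in brain and 0.48 in WAT. The ratio of end 20 to end 21 differed by 0.71 in brain and -0.20 in WAT for the listed start, and by 0.68 in brain and -0.54 in WAT for the G start. None of these ratios depends on the scaling between libraries.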

How the results depend on the processing

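No paired analysis was possible because each condition has 1 library and the labels give no replicate numbers. Brain and WAT of a state came from the same bats, but the pools do not keep single bats apart. The all-form log2 ratio of hibernating to active in brain was 0.21 with scaling by clean reads, 0.41 by the reads of the listed tags, 0.49 by the median of ratios, 0.63 with TMM over the conserved miRNAs, 0.31 with TMM over all-form counts and 0.59 with tags of the listed start only. In the same order it was -0.23, 0.44, 0.37, 0.90, -0.15 and 0.043 in WAT. The ratio of brain to WAT was 0.58, -0.092, 0.64, 0.58, 0.78 and 0.29 in hibernation, and 0.14, -0.059, 0.23, -0.043, 0.088 and -0.32 in the active state. The count with tags of the listed start leaves out the G start tags, and the cause of the other shifts was not tested. The shares of forms moved little, but the rank of the shortened share moved from 5th to 7th of 37 miRNAs to 10th to 16th of 96 with a minimum of 100 reads, and to 1st or 2nd of 32 with tags of the listed start. In HB, the shortened share was 51.7% with shifts of at most 1 base and 51.4% with tags that contain bases 2 to 17, and the shifted share 41.2% and 41.5%. In AA, the shifted share was 29.2% with tags that contain bases 2 to 17. Thinning the libraries or leaving out single reads moved no share beyond its interval. With a minimum of 100 reads, which tests fewer miRNAs, 32 miRNAs in the brain pair and 38 in the WAT pair had a ratio of 1 or more in size. The counts were 78 between HB and HA and 74 between AB and AA. With 10 reads they were, in the same order, 62 of 153, 70 of 142, 121 of 159 and 119 of 159 miRNAs. The number tested at 100 reads is not given here, so the shares are not compared. Depth did not limit the main forms, whereas the opposite arm was too rare for a comparison.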
